A study of Mus musculus with 8 samples.

Results

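The 53 genes described here encode the machinery that copies DNA in S phase, and they were taken by gene symbol from 24059 genes counted in bone marrow–derived mast cells (BMMCs). They were listed by their known roles in replication, but with earlier results of these data known. They fall into the MCM2-7 helicase (6 genes), the origin recognition complex (6), licensing factors with their inhibitor (3), helicase activation factors (6), DNA polymerases and primase (9), the sliding clamp and its loaders (6), the single-strand binding complex RPA (3), lagging-strand processing (2), nucleotide supply (4), chromatin copying and S-phase ubiquitin factors (6), and fork checkpoint factors (2). All 53 passed edgeR's filter on low counts, which left 14934 genes to test.

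BMMCs were grown from the bone marrow of C57BL/6 mice with IL-3 for at least 4 wk. Cells were transfected with ribonucleoprotein particles (RNPs), complexes of the nuclease Cas9 with guide RNA, aimed either at *Zc3h12a*, which encodes the RNase Regnase-1, or at no gene (a scrambled guide), and were cultured for 1 wk before RNA was taken. There were 4 scrambled RNP samples (genotype label *Zc3h12a* WT) and 4 *Zc3h12a* RNP samples (label *Zc3h12a* KO), numbered 1 to 4 in each group. All samples had received Cas9 and a guide, and the edited cells were transfected cultures rather than clones.

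Replication starts at origins, where the origin recognition complex, CDC6 and CDT1 load the ring-shaped MCM2-7 helicase before S phase, and geminin (*Gmnn*) holds CDT1 back afterwards. CDC45 and the GINS complex then turn the ring into a working helicase, polymerase α with primase lays down primers, polymerases δ and ε extend them on the clamp PCNA, and FEN1 and LIG1 join the lagging-strand pieces. Many of these genes are transcribed at the entry to S phase under E2F factors, so that dividing cultures hold more of their mRNA than resting ones. BMMCs are cells that still divide in IL-3.

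Library depth ranged from 19610240 to 33986762 counts in the scrambled RNP group and from 23712029 to 28564062 in the *Zc3h12a* RNP group. The raw counts of the 53 genes ran from 68 to 8183, and 3 genes (*Gins1*, *Gins3*, *Rfc4*) had a count below 100 in a sample. Scrambled replicates 2 and 4 stood apart from the other samples over all genes, in both directions. They were the lowest of the 8 samples for 27.5% and 20.9% of genes tested and the highest for 21% and 27.3%. The targeted mRNA gave no check of the labels: *Zc3h12a* stood at 24.9, 38, 37.1 and 39.3 CPM (counts scaled to library size by TMM) in scrambled replicates 1 to 4 and at 26.8, 41.1, 32.2 and 32.6 in *Zc3h12a* RNP replicates 1 to 4, a log2 fold change of -0.06 (SE 0.1). The levels overlapped, and the mRNA was higher in 2 of 4 pairs. All 12 mast cell markers listed passed the filter, with a summed level of 60432 to 69962 CPM after scrambled RNP and 57069 to 60913 CPM after *Zc3h12a* RNP. Markers of macrophages summed to at most 18.3 CPM, of neutrophils to 0.333 CPM, of B cells to 0.693 CPM, of T and NK cells to 5.66 CPM, of eosinophils to 6.09 CPM and of erythroid cells to 3.93 CPM in any sample. The basophil list summed to 445 to 542 CPM, nearly all *Cd200r3*, the megakaryocyte list to 1263 to 2026 CPM, nearly all *Itga2b*, and the progenitor list to 545 to 787 CPM, mostly *Cd34* and *Meis1*. Some low markers differed most in pairs 2 and 4: the progenitor receptor *Flt3* stood at 0.367 and 4.77 CPM in scrambled and *Zc3h12a* RNP replicate 2 and at 7.14 and 2.05 CPM in replicate 4, and the T cell gene *Cd3e* at 0.433 and 3.64 CPM and at 5.47 and 2.63 CPM. Median log2 differences of the 4 progenitor genes were 0.5, 1.47, 0.03 and -0.69 in pairs 1 to 4, and their part in the differences described below was not tested. In bulk RNA, fewer cells of a type (here cells in S phase) and less RNA per cell cannot be told apart.

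Promoter sequences were not used to choose the genes. Many replication genes are transcribed under E2F factors, as described above, so an excess of E2F strings is no independent result. RefSeq promoter sequences (GRCm38.p6, from 250 bases before to 50 after the start) were matched for 44 of the 53 genes, and *Mcm4*, *Gmnn*, *Gins1*, *Gins2*, *Gins4*, *Prim2*, *Pole*, *Rfc2* and *Tipin* were not matched. The E2F site was searched as the string TTCCCGC, the string TTCGCGC, the string TTGCCGC or the string TTGGCGC, on both strands and with overlaps allowed. A match was present for 31 of 44 genes (70.5%), against 18% of tested genes and 10.9% of all 27025 genes with a promoter sequence. A gene was counted if any of its listed promoters held a match, and the background was not matched for GC content. The CCAAT box (CCAAT, both strands) was present in 27 of 44 (61.4%), against 43.2% of tested genes, and the cell cycle homology string TTTGAA in 5 of 44 (11.4%), against 15.6%. No E2F string was found for *Mcm2*, *Orc2*, *Orc5*, *Orc6*, *Mcm10*, *Cdc45*, *Pola2*, *Pold2*, *Pcna*, *Rfc5*, *Rpa1*, *Tyms* and *Tk1*. The windows below lie upstream of the start. They are a choice of helicase, licensing and chromatin genes that had a match and are named further on. *Orc4* is added, as it had a match and the lowest log2 fold change of all 53. Capitals mark the E2F strings, on either strand, and each window is printed 5′ to 3′ on the gene's strand. *Mcm5* (chr8:75109340-75109386, plus strand), *Mcm6* (chr1:128359722-128359768, minus), *Cdc6* (chr11:98907993-98908039, plus), *Uhrf1* (chr17:56303269-56303315, plus), *Hells* (chr19:38930927-38930973, plus), *Cdca7* (chr2:72476128-72476174, plus) and *Orc4* (chr2:48949381-48949427, minus) read as follows.
Mcm5: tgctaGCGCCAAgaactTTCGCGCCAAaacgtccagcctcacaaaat
Mcm6: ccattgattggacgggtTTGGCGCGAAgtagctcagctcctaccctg
Cdc6: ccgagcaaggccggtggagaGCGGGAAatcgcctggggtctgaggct
Uhrf1: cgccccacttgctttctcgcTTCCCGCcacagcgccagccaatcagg
Hells: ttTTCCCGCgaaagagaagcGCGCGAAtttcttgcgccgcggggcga
Cdca7: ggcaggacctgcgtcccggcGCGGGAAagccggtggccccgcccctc
Orc4: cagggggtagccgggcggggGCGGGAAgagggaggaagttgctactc
*Mcm5* and *Mcm6* each hold strings that overlap on opposite strands, and *Hells* holds a pair of separate strings. Of the 18 genes with the lowest p-values in the comparison below (p at or under 0.05 before adjustment), 14 had a promoter sequence and 11 of these a match, against 20 of the 30 with a sequence among the other 35. A match is a string of letters and no measurement of binding.

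After *Zc3h12a* RNP, 51 of the 53 replication genes had a higher fitted level than after scrambled RNP, but none passed the test. The median log2 fold change of the 53 genes was 0.31 (1.24-fold), against 0.01 over all 14934 genes tested, and single genes ran from -0.05 (*Orc4*) to 0.61 (*Cdca7*) with SEs of 0.07 to 0.23. With edgeR's quasi-likelihood test and Benjamini-Hochberg adjustment over all genes, no replication gene was called at an adjusted p at or under 0.05 and a log2 fold change beyond 0.5, and the lowest adjusted p was 0.61 (*Pole*). The background of that call was 0% of genes higher and 0.0067% lower. DESeq2 and limma-trend also called 0 of the 53. Before adjustment, 18 genes (34%) were higher with p at or under 0.05, called nominal here, against 1.99% of all genes tested, and 0 were lower, against 4.21%. A log2 fold change above 0 was held by 96.2% of the replication genes and by 52.4% of all genes tested. Groups of 4 samples without overlap, higher after *Zc3h12a* RNP, occurred for 0 of 53 genes and for 0.261% of all genes.

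The difference was uneven between the pairs of samples with the same replicate number. The median log2 difference of the 53 genes was 0.27 in pair 1, -0.05 in pair 2, 0.21 in pair 3 and 0.77 in pair 4, while the median over all genes lay between -0.06 and 0.03. In pairs 1, 3 and 4, 50, 47 and 51 of the 53 genes were higher after *Zc3h12a* RNP. In pair 2, 18 genes were higher with TMM scaling, 6 with RLE size factors and 40 with total counts, so the side of 0 depended on the scaling. Taken relative to the median of all genes, the pairs differed by 0.25, -0.05, 0.2 and 0.83 with TMM. This relative difference hardly moved with the scaling in pair 2, at -0.05 with RLE size factors and -0.06 with total counts. With TMM, 13 of the 53 genes (24.5%) were higher in all 4 pairs, against 4.98% of all genes, and 0 were lower in all 4, against 8.54%. The number was 3 with RLE size factors and 36 with total counts. The share of all genes higher in all 4 pairs under those scalings is not given here. In pair 2, 38.1% of all genes were higher with RLE size factors, 51.2% with TMM and 68.3% with total counts. The 13 genes were *Cdc6*, *Mcm10*, *Cdc45*, *Gins1*, *Pola2*, *Prim1*, *Prim2*, *Pold3*, *Pole*, *Rfc4*, *Tk1*, *Hells* and *Cdca7*.

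**Figure D1:**
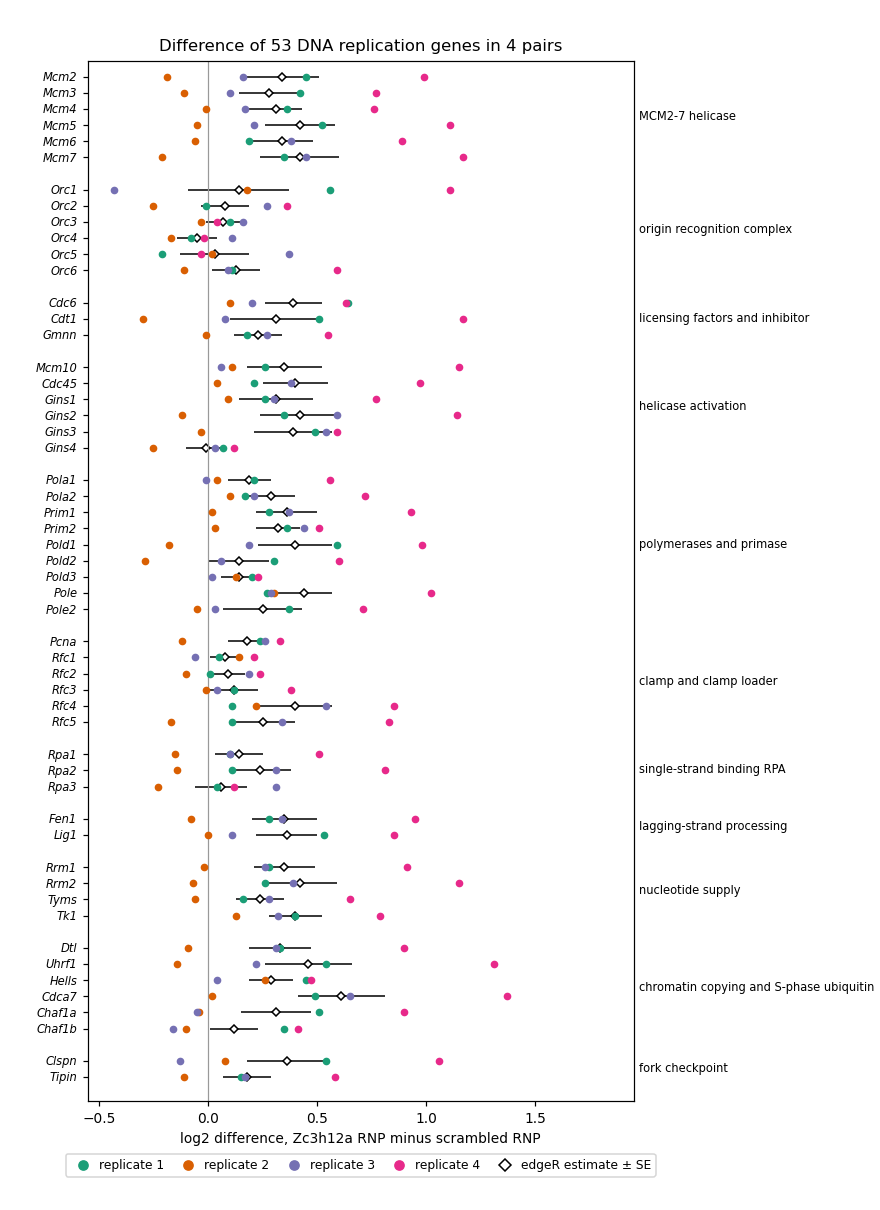
Log2 difference (x axis; *Zc3h12a* RNP minus scrambled RNP, TMM-scaled) of each of the 53 genes, ordered by complex. Coloured points are the 4 pairs and diamonds with bars the edgeR estimate ± SE. Points of pair 4 lie furthest to the right for most genes, and those of pair 2 lie around 0. Their side of 0 depends on the scaling (18 of 53 higher with TMM, 40 with total counts). Over all genes tested, 51.2% and 68.3% were higher in that pair.

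In pair 4, which had the largest difference, the scrambled sample was low among the 8 and the *Zc3h12a* RNP sample was not high. The summed level of the 53 genes was 2627, 3117, 3504 and 1891 CPM in scrambled replicates 1 to 4 and 3140.3, 2977, 4004 and 2972 CPM in *Zc3h12a* RNP replicates 1 to 4. Scrambled replicate 4 was the lowest of the 8 samples for 42 of the 53 genes (79.2%), against 20.9% of all genes tested. *Zc3h12a* RNP replicate 3 was the highest for 40, against 10.3% of all genes tested. The exceptions to the low scrambled replicate 4 were *Orc1*, *Orc3*, *Orc4*, *Orc5*, *Cdc6*, *Cdc45*, *Pold3*, *Pcna*, *Rfc1*, *Rfc2* and *Hells*. The highest scrambled sample exceeded the lowest by a median of 2.11-fold over the 53 genes, and the highest *Zc3h12a* RNP sample the lowest by 1.49-fold. The scrambled range was the wider for 47 of 53 genes, while over all genes tested it was the wider for 70.2% (medians 1.91-fold and 1.67-fold).

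Without replicate 4 the median log2 fold change of the 53 genes was 0.14, with 4 nominal higher genes, against 3.65% of all genes then tested. Without replicate 2 it was 0.48, with 35 nominal, against 4.14% of all genes, and 7 called (13.2%, against 0.272% of the 15082 genes then tested). The 7 were *Mcm2* (0.58), *Mcm5* (0.65), *Mcm7* (0.7), *Pold1* (0.64), *Rrm2* (0.64), *Uhrf1* (0.73) and *Cdca7* (0.85), values that are log2 fold changes over 3 pairs. Without replicate 1 or 3 the medians were 0.33 and 0.27, with 2 and 0 nominal genes, against 0.42% and 0.397% of all genes.

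**Figure D2:**
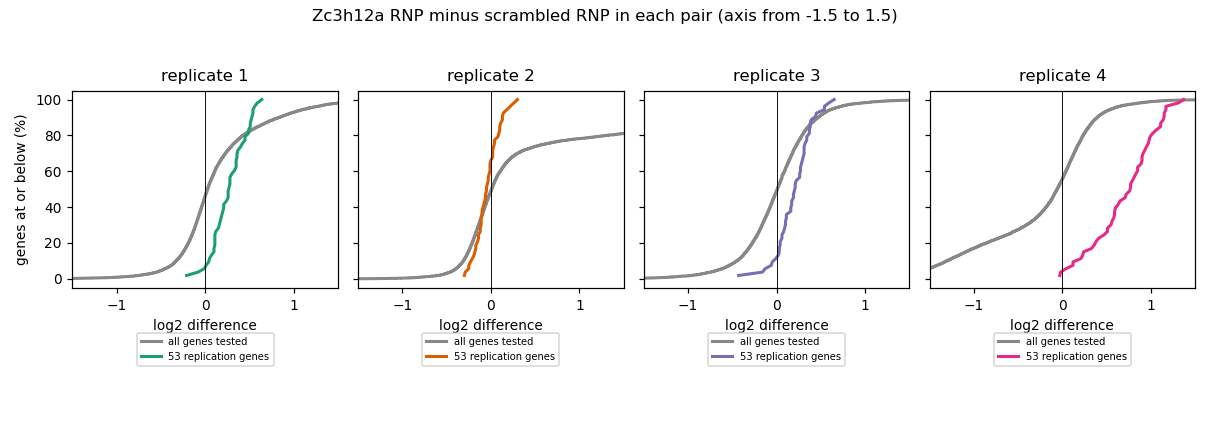
Cumulative share of genes (y axis, %) at or below each log2 difference (x axis, *Zc3h12a* RNP minus scrambled RNP, wider differences not drawn) in each pair, for the 53 replication genes (coloured) and all 14934 genes tested (grey). The coloured line lies mostly to the right of 0 in pairs 1, 3 and 4 (medians 0.27, 0.21 and 0.77). In pair 2 it lies near 0 (median -0.05 with TMM, against 0.01 over all genes). With total counts that median was 0.08, against 0.13 over all genes.

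The 15 mitosis genes examined beside the replication genes moved with the same samples. Their summed level was 1119, 1291, 1777 and 797 CPM in scrambled replicates 1 to 4 and 1472, 1296, 1792 and 1588 CPM in *Zc3h12a* RNP replicates 1 to 4, again lowest in scrambled replicate 4. All 15 had a log2 fold change above 0, against 52.4% of all genes tested, with a median of 0.31 and 0 called. Of the 15, 3 were nominal and higher, against 1.99% of all genes tested. The medians per pair were 0.33, -0.09, 0.16 and 1.02. Whether the replication genes differed because of the share of dividing cells was not tested.

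**Figure D3:**
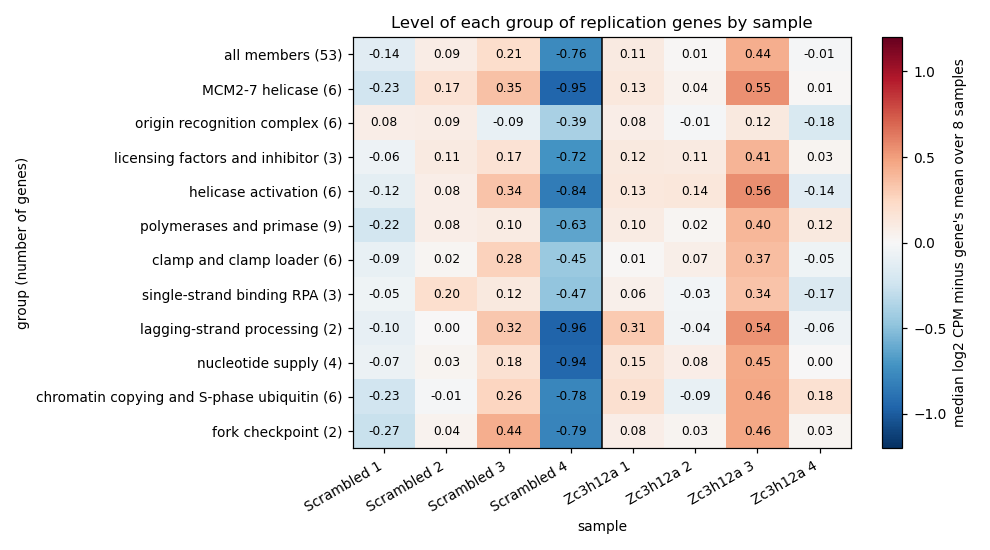
Median log2 CPM of each group of replication genes in each sample, as the difference from each gene's mean over the 8 samples (colour and printed value). Scrambled replicate 4 is the lowest sample in every group (-0.76 over all 53 genes) and *Zc3h12a* RNP replicate 3 the highest (0.44).

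Between genes, levels were compared per kilobase of merged exons (all annotated isoforms, which understates genes with long unused exons). The median log2 CPM of the 53 genes, without division by length, was 5.15 against 3.83 over all genes tested, and 7 of the 53 lay below that median. Per kilobase, the clamp gene *Pcna* was the highest at 95.1 CPM per kb (SD 23.4 over 8 samples), followed by *Rfc2* at 35.6 ± 4.3 and *Mcm6* at 33.1 ± 7.8. The last 2 did not differ beyond their spread. *Lat2* exons on the opposite strand cover 24.3% of the merged exons of *Rfc2*, and the strand setting of the counts is not given. The MCM2-7 subunits, which form the ring in equal numbers, lay between 13.7 (*Mcm2*) and 33.1 CPM per kb. The lowest gene was *Orc5* at 1.04 ± 0.137.

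**Figure D4:**
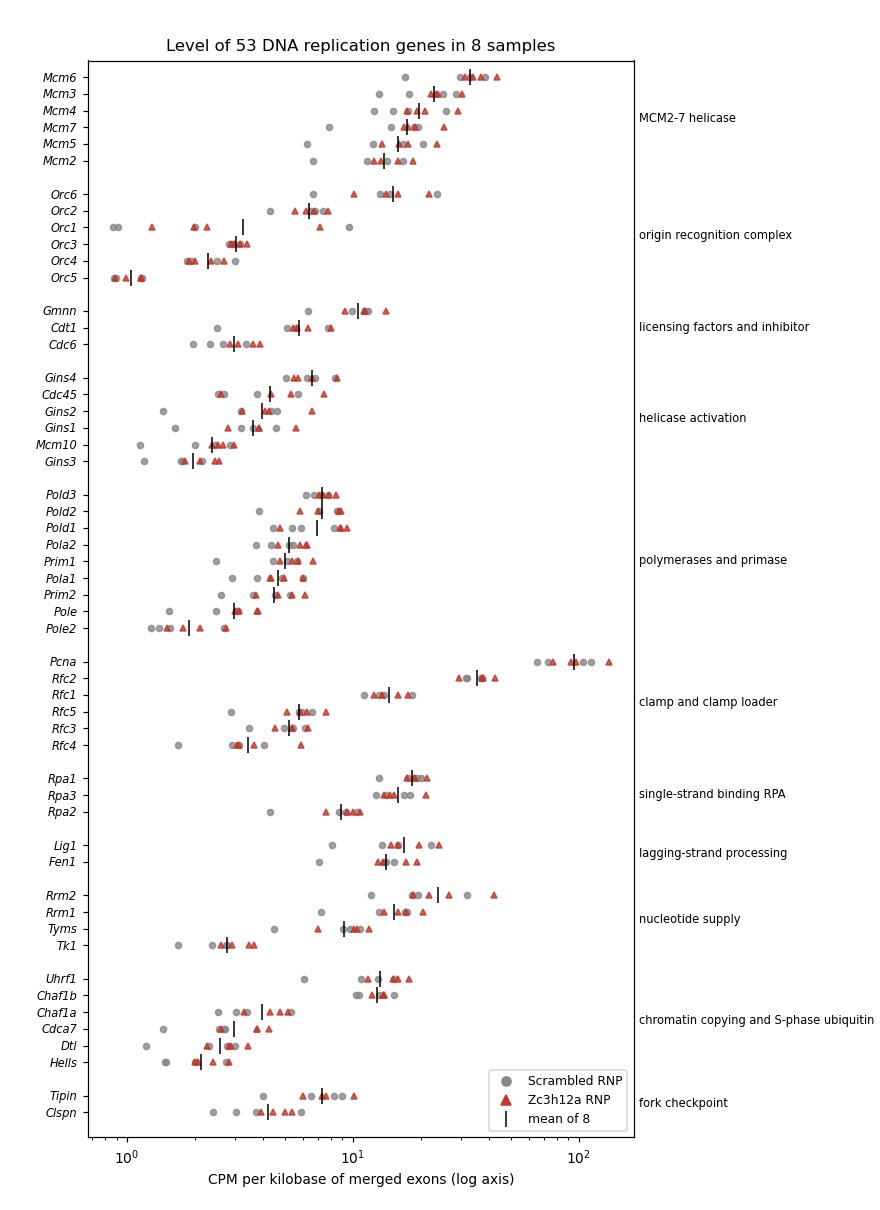
Level of each gene in CPM per kilobase of merged exons (x axis, log scale) in the 4 scrambled RNP samples (grey circles) and the 4 *Zc3h12a* RNP samples (red triangles), with a bar at the mean of 8. Groups overlap for every gene, and the isolated grey circle at the left of many lines, as for *Mcm7* at 7.81, is scrambled replicate 4.

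All 6 subunits of the MCM2-7 helicase had a log2 fold change above 0 (0.28 to 0.42, median 0.34), 3 of them (*Mcm4*, *Mcm5*, *Mcm6*) nominal and none called. *Mcm4* (chr16:15440211-15455264, GRCm39, minus strand) had the lowest p of the 6. It stood at 80.6, 94.1, 138 and 66.1 CPM in scrambled replicates 1 to 4 and at 103, 93.2, 156 and 112 CPM in *Zc3h12a* RNP replicates 1 to 4. The sample after *Zc3h12a* RNP was higher in pairs 1, 3 and 4 and about level in pair 2, and the groups overlapped. The means were 94.7 ± 31 and 116 ± 27.4 CPM (SD, n = 4), and the log2 fold change was 0.31 (SE 0.12), and edgeR's quasi-likelihood test gave an adjusted p of 0.758. *Mcm6* (chr1:128259311-128287516, minus), the subunit with the highest level per kilobase, stood at 162, 209, 181 and 92.2 CPM after scrambled RNP and at 185, 201, 236 and 171 CPM after *Zc3h12a* RNP. Its lowest value, in scrambled replicate 4, lay apart from the other 7, and its log2 fold change was 0.34 (SE 0.14). Pair medians of the 6 subunits were 0.39, -0.09, 0.19 and 0.94 with TMM. The median log2 fold change was 0.17 without replicate 4 and 0.56 without replicate 2.

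The origin recognition complex, which marks origins and is present through the cell cycle for most of its subunits, had the smallest median log2 fold change of the 11 groups, 0.08, and 0 of 6 genes were nominal. *Orc6* (chr8:86026219-86034912, plus) had both the lowest p and the highest level per kilobase of the 6. It stood at 36.9, 59.4, 33.4 and 16.9 CPM after scrambled RNP and at 39.9, 54.9, 35.6 and 25.4 CPM after *Zc3h12a* RNP. Replicate 2 was the highest in both groups and replicate 4 the lowest, and the log2 fold change was 0.13 (SE 0.11). *Orc1*, the large ATPase subunit whose level cycles, varied by replicate more than any other of the 53 genes. It stood at 4.98, 11.5, 55.3 and 5.23 CPM after scrambled RNP and at 7.39, 13, 41.1 and 11.4 CPM after *Zc3h12a* RNP. Both samples of replicate 3 were far above all others, and the log2 fold change was 0.14 (SE 0.23). *Orc2*, *Orc3*, *Orc4* and *Orc5* had log2 fold changes of 0.08, 0.07, -0.05 and 0.03. *Orc3* ranged only from 36.3 to 43.7 CPM over the 8 samples. Opposite-strand exons of *Nif3l1*, *Akirin2* and *Acvr2a* cover 20.7%, 32.9% and 22.2% of the merged exons of *Orc2*, *Orc3* and *Orc4*. The direction for *Orc4* was above 0 with total counts (0.02). The difference between this complex and the other groups was not tested.

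Of the licensing factors, *Cdc6*, the ATPase that joins the origin recognition complex to load MCM2-7, was higher in all 4 pairs with TMM. *Cdc6* (chr11:98798507-98814766, plus) stood at 10.8, 14.6, 18.5 and 12.8 CPM after scrambled RNP and at 17, 15.7, 21.3 and 19.9 CPM after *Zc3h12a* RNP. Only scrambled replicate 3 lay within the range of the *Zc3h12a* RNP group. The means were 14.2 ± 3.28 and 18.5 ± 2.58 CPM (SD, n = 4), and the log2 fold change was 0.39 (SE 0.13) (adjusted p 0.702, edgeR's quasi-likelihood test). *Cdt1*, its partner in loading, had a log2 fold change of 0.31 (SE 0.21), from pair differences of 0.51, -0.3, 0.08 and 1.17. *Gmnn*, the CDT1 inhibitor, had the highest level per kilobase of the 3 genes. It stood at 27.4, 31.1, 32.2 and 17.4 CPM after scrambled RNP and at 31.1, 30.9, 39 and 25.5 CPM after *Zc3h12a* RNP. Scrambled replicate 4 was lowest for *Gmnn* and *Cdt1*, while scrambled replicate 1 was lowest for *Cdc6*, and the log2 fold change of *Gmnn* was 0.23 (SE 0.11).

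Among the helicase activation factors, 5 of 6 had a log2 fold change above 0 (median 0.37), and *Cdc45* and *Gins2* were nominal. *Cdc45* (chr16:18599195-18631551, minus), which completes the active helicase, stood at 16.3, 11, 24.8 and 11.7 CPM after scrambled RNP and at 18.8, 11.3, 32.3 and 23 CPM after *Zc3h12a* RNP. Replicate 2 was low in both groups and replicate 3 high in both. The log2 fold change was 0.4 (SE 0.15), and edgeR's quasi-likelihood test gave an adjusted p of 0.753. The GINS subunits, which act as a complex of 4, did not share a value. *Gins1*, *Gins2* and *Gins3* had log2 fold changes of 0.31, 0.42 and 0.39, and *Gins4* had -0.01 (SE 0.09). *Gins4*, the GINS gene with the highest level per kilobase, stood at 31.5, 34.2, 42.1 and 25.4 CPM after scrambled RNP and at 33.2, 28.7, 42.8 and 27.7 CPM after *Zc3h12a* RNP. Its groups covered nearly the same range, and its log2 fold change was 0.06 with total counts. *Mcm10*, which helps to fire the loaded helicase, was at 0.35 (SE 0.17), with pair differences of 0.26, 0.11, 0.06 and 1.15. Exons of *Gse1* on the opposite strand cover 67.3% of the merged exons of *Gins2*, and whether strand was used in counting is not given in the sources used here.

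All 9 polymerase and primase genes had a log2 fold change above 0 (0.14 to 0.44, median 0.29), with 5 nominal and 5 higher in all 4 pairs with TMM. *Pole* (chr5:110434172-110486287, plus), the catalytic subunit of the leading-strand polymerase ε, had the lowest p of all 53 genes. It stood at 30.2, 37, 37.6 and 18.7 CPM after scrambled RNP and at 36.5, 45.5, 45.9 and 38 CPM after *Zc3h12a* RNP. Pairs 1, 2 and 3 differed by 0.27, 0.3 and 0.29 and pair 4 by 1.02, on the log2 scale. The means were 30.9 ± 8.8 and 41.5 ± 4.93 CPM (SD, n = 4), and the log2 fold change was 0.44 (SE 0.13) (adjusted p 0.61, edgeR's quasi-likelihood test). It was the gene of the 53 with the largest difference in pair 2. Its partner *Pole2* had a log2 fold change of 0.25 (SE 0.18).

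The primase subunits *Prim1* and *Prim2* had log2 fold changes of 0.36 and 0.32, and the polymerase α subunits *Pola1* and *Pola2* of 0.19 and 0.29. Of the lagging-strand polymerase δ, the catalytic subunit *Pold1* was at 0.4 (SE 0.17) and the accessory subunits *Pold2* and *Pold3* both at 0.14. *Pold3* (chr7:99731317-99770888, minus), with the highest level per kilobase of the 9, stood at 35.3, 38.4, 44.1 and 41.1 CPM after scrambled RNP and at 40.6, 42.2, 44.6 and 48.2 CPM after *Zc3h12a* RNP. It was higher in all 4 pairs with TMM but by no more than 0.23 on the log2 scale, and scrambled replicate 4 was not low for it. For *Pold1* the *Zc3h12a* RNP sample of replicate 2 was at 28.2 CPM, below the other 3 of its group at 52.1 to 55.8. Without replicate 4 the median log2 fold change of the 9 genes was 0.16.

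The clamp and its loaders had a median difference of 0.15 on the log2 scale, with 0 of 6 genes nominal. *Pcna* (chr2:132091082-132095234, minus), the ring that tethers polymerases to DNA, stood at 157, 253, 273 and 176 CPM after scrambled RNP and at 185, 234, 327 and 221 CPM after *Zc3h12a* RNP. Replicates 2 and 3 were higher than 1 and 4 in both groups, and the log2 fold change was 0.18 (SE 0.09). *Rfc4*, a small subunit of the loader, had the lowest p of the 6, with 6.47, 7, 8.98 and 3.76 CPM after scrambled RNP and 6.97, 8.15, 13.1 and 6.82 CPM after *Zc3h12a* RNP. It was higher in all 4 pairs with TMM, with a log2 fold change of 0.4 (SE 0.17), and rested on counts as low as 79. The large loader subunit *Rfc1* and the small subunits *Rfc2*, *Rfc3* and *Rfc5* had log2 fold changes of 0.08, 0.09, 0.12 and 0.25. *Rfc2* shares 24.3% of its merged exons with *Lat2* on the opposite strand, and *Rfc5* shares 41.4% with *Wsb2*.

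The RPA complex, which covers single-stranded DNA in repair as well as in replication, had log2 fold changes of 0.14 (*Rpa1*), 0.24 (*Rpa2*) and 0.06 (*Rpa3*). *Rpa1*, the large subunit and the highest per kilobase of the 3, stood at 139, 153, 158 and 103 CPM after scrambled RNP and at 149, 138, 169 and 147 CPM after *Zc3h12a* RNP. *Rpa2* had the lowest p, with 28.2, 31.6, 26.5 and 13 CPM after scrambled RNP and 30.4, 28.7, 32.9 and 23 CPM after *Zc3h12a* RNP. In both genes replicate 4 held the widest difference, and pair 2 was below 0 with TMM (-0.15 and -0.14).

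Both lagging-strand genes were nominal, with log2 fold changes of 0.35 for *Fen1*, the flap nuclease, and 0.36 for *Lig1*, the ligase that seals Okazaki fragments. *Lig1* (chr7:13011239-13045350, plus) stood at 60.9, 71.8, 100.4 and 36.5 CPM after scrambled RNP and at 88.2, 71.7, 109 and 66.1 CPM after *Zc3h12a* RNP. Replicate 2 was level, and replicates 1 and 4 carried most of the difference. The SE was 0.14, and edgeR's quasi-likelihood test gave an adjusted p of 0.758. Exons of *Gm10143* on the opposite strand cover 59% of the merged exons of *Fen1*.

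In nucleotide supply, 3 of 4 genes (*Rrm1*, *Rrm2*, *Tk1*) were nominal, and the median log2 fold change was 0.37 (0.19 without replicate 4). *Tk1* (chr11:117702770-117717042, minus), the cytosolic thymidine kinase of S phase, stood at 18.4, 15.9, 18.5 and 11.2 CPM after scrambled RNP and at 24.3, 17.4, 23.2 and 19.4 CPM after *Zc3h12a* RNP. It was higher in all 4 pairs with TMM, and only *Zc3h12a* RNP replicate 2 lay within the scrambled range. The log2 fold change was 0.4 (SE 0.12) (adjusted p 0.658, edgeR's quasi-likelihood test). *Rrm2*, the small subunit of ribonucleotide reductase and the highest per kilobase of the 4, stood at 60.4, 64.6, 107 and 39.8 CPM after scrambled RNP and at 72.5, 61.5, 139 and 88.3 CPM after *Zc3h12a* RNP. Replicate 3 was the highest in both groups, and the log2 fold change was 0.42 (SE 0.17). The large subunit *Rrm1* was at 0.35 and the thymidylate synthase *Tyms* at 0.24. Exons of *Gm59512* on the opposite strand cover 43.3% of the merged exons of *Rrm2*.

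**Figure D5:**
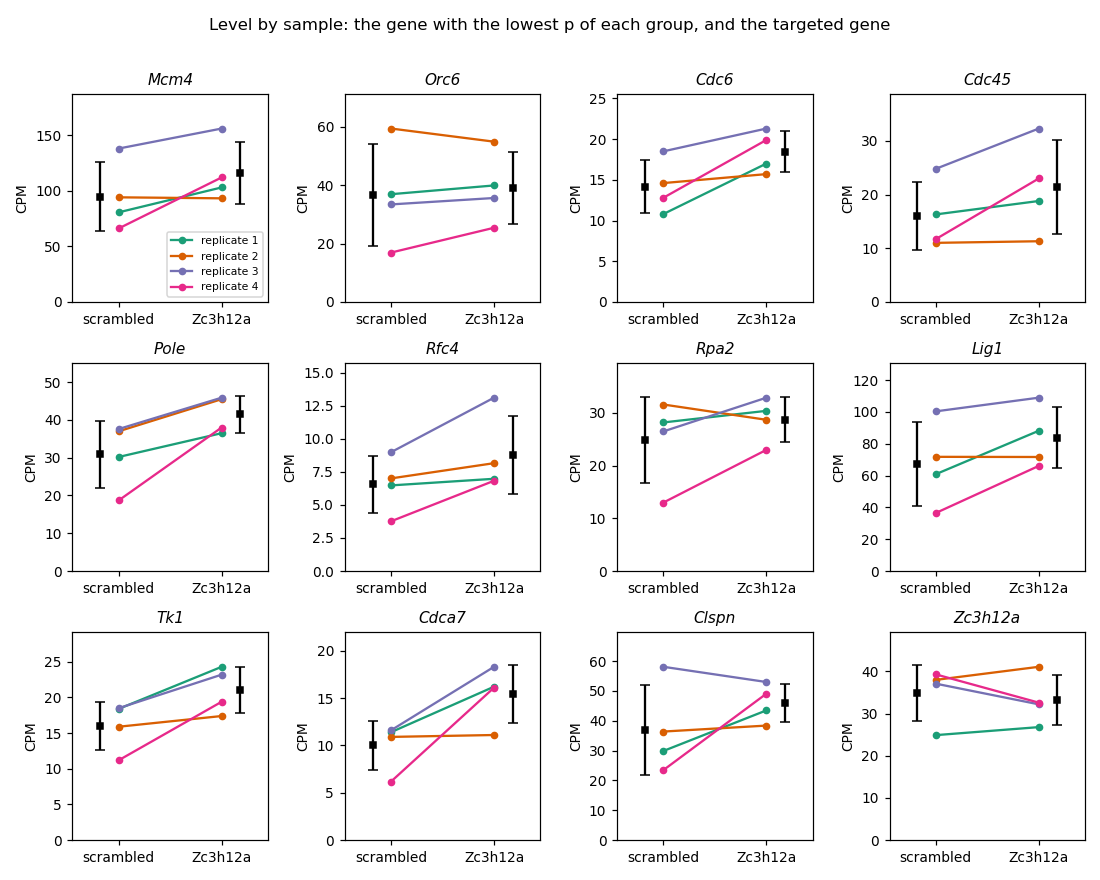
CPM (y axes, from 0) of the gene with the lowest p in each of the 11 groups and of the targeted *Zc3h12a*, with lines joining the samples of a replicate number and squares at the mean ± SD (n = 4). *Cdc6*, *Cdc45*, *Pole*, *Rfc4*, *Tk1* and *Cdca7* were higher in all 4 pairs with TMM, and the line of replicate 2 was the flattest or sloped down for most of the genes shown.

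The chromatin group held the largest log2 fold change of the 53. *Cdca7* (chr2:72306341-72317240, plus), which recruits the remodeller HELLS to chromatin, stood at 11.4, 10.9, 11.6 and 6.19 CPM after scrambled RNP and at 16.2, 11.1, 18.3 and 16.1 CPM after *Zc3h12a* RNP. The *Zc3h12a* RNP samples of replicates 1, 3 and 4 lay above all scrambled samples, and that of replicate 2 lay among them. The means were 10 ± 2.58 and 15.4 ± 3.05 CPM (SD, n = 4), and the log2 fold change was 0.61 (SE 0.2) (adjusted p 0.673, edgeR's quasi-likelihood test). The adjusted p of that test was 0.0122 without replicate 2, and 1, 0.999 and 0.754 without replicates 1, 3 and 4.

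*Uhrf1*, which guides maintenance DNA methylation at the fork, was the highest per kilobase of the 6 chromatin genes. It stood at 57.5, 68, 80.2 and 32.2 CPM after scrambled RNP and at 83.7, 61.5, 93.3 and 79.8 CPM after *Zc3h12a* RNP. Its pair 4 difference of 1.31 was the second largest of the 53 after *Cdca7* (1.37), and its log2 fold change was 0.46 (SE 0.2). *Hells* was at 0.29 (SE 0.1) and *Dtl*, a substrate receptor for CDT1 destruction, at 0.33 (SE 0.14). The chromatin assembly subunits *Chaf1a* and *Chaf1b* were at 0.31 and 0.12, each higher in 2 of 4 pairs with TMM. *Chaf1a* shares 51% of its merged exons with *Ubxn6* on the opposite strand. The median of the 6 genes was 0.2 without replicate 4.

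Neither fork checkpoint factor was nominal. *Clspn*, the adaptor for CHK1 activation, stood at 29.9, 36.4, 58.1 and 23.5 CPM after scrambled RNP and at 43.5, 38.4, 53 and 49.1 CPM after *Zc3h12a* RNP, a log2 fold change of 0.36 (SE 0.18). *Tipin*, of the fork protection complex, stood at 42.3, 53.3, 57.8 and 25.9 CPM after scrambled RNP and at 47.1, 49.4, 65.3 and 38.7 CPM after *Zc3h12a* RNP, a log2 fold change of 0.18 (SE 0.11). Replicate 3 ran opposite ways in these genes, lower after *Zc3h12a* RNP for *Clspn* and higher for *Tipin*.

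Another 64 genes of the same pathways gave a smaller median log2 fold change of 0.25, with 52 above 0, 12 below and 0 called. Over all genes tested, 52.4% were above 0. Of the 64, 9 higher and 3 lower genes were nominal, against 1.99% and 4.21% of all genes tested. In all 4 pairs, 14 were higher and 4 lower, against 4.98% and 8.54% of all genes tested. The lower counts of the 64 genes were near those shares. Pair medians were 0.24, -0.05, 0.15 and 0.6. The highest 3 were *Dna2*, a nuclease and helicase of flap removal and end resection (0.56, SE 0.23), *Recql4*, a helicase needed for origin firing (0.5, SE 0.22), and *Tonsl*, a reader of newly copied chromatin (0.45, SE 0.14). The lowest 3 were *Samhd1*, which breaks down deoxynucleotides (-0.32, SE 0.1), *Tk2*, the mitochondrial thymidine kinase (-0.3, SE 0.09), and *Pold4*, the smallest polymerase δ subunit (-0.25, SE 0.09).

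The last 3 were lower in all 4 pairs, as were 8.54% of all genes tested. They lay on the opposite side from *Tk1* and from *Pold1*, *Pold2* and *Pold3*. *Samhd1* stood at 89.6, 52.1, 69.2 and 101 CPM after scrambled RNP and at 59.5, 49.1, 64.3 and 73.8 CPM after *Zc3h12a* RNP. *Tk2* stood at 42.7, 55.9, 79.6 and 83.3 CPM after scrambled RNP and at 34.2, 51.5, 54.5 and 71.2 CPM after *Zc3h12a* RNP. *Pold4* stood at 38.8, 36.3, 35.8 and 34.6 CPM after scrambled RNP and at 30.4, 26.7, 33.3 and 31.8 CPM after *Zc3h12a* RNP, with no overlap between the groups, which 0.663% of all genes tested shared in that direction. For *Samhd1* and *Tk2*, scrambled replicate 4 was the highest of the 8 samples. Of 10 other origin firing factors 10 had a log2 fold change above 0 (median 0.27), of 18 fork and polymerase factors 14 (0.28), of 12 nucleotide supply genes 8 (0.31), of 8 chromatin copying genes 7 (0.1), and of 16 E2F and G1/S regulators 13 (0.24).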

How the data were processed

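mRNA of 8 BMMC samples was analysed. The authors enriched poly(A) RNA and deposited raw counts per gene. The submitters' processing notes name FastQC 0.11.9, HISAT2 2.2.1, featureCounts 2.0.1 and GRCm39. The methods name a batch correction, but the deposited counts are whole numbers. The strand setting, the handling of reads with several matches and the batch are not given in the sources used here.

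Tests used edgeR 4.0.16 under R 4.3.3 (quasi-likelihood in its newer form, TMM, edgeR's low-count filter by group, replicate number as a block). Calls needed a log2 fold change beyond 0.5 and an adjusted p (Benjamini-Hochberg) of 0.05 or less. CPM are TMM-scaled, and pair differences are of log2 CPM with a prior count of 2. SEs are the log2 fold change over the root of F. The test was also run on simulated counts without a replicate effect. These data have one, so that run does not show how the test behaves here. Alternatives were DESeq2 1.42.0, limma-trend (limma 3.58.1), edgeR's legacy form, no block, other scalings and filters, a prior count of 0.5, and each replicate left out. Plots were made in Python 3.11.15 with matplotlib 3.10.9.

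The pairing comes from the design text (4 mice, both RNPs), although no label ties a number to a mouse. Samples sharing a number deviated together from their groups, with correlations of 0.756, 0.717, 0.728 and 0.719 over 9668 genes with a mean log2 CPM above 2, and at most 0.137 for other pairs. Over all genes tested, pairs 1 to 4 were at 0.595, 0.0752, 0.624 and 0.0414, and samples of different numbers at up to 0.398, above pairs 2 and 4.

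The members and gene lists were chosen with earlier results of these data known. Values in every sample are given for the lowest p and the highest level per kilobase in each group, for *Orc1*, chosen after its values were seen, and for the extremes of the other pathway genes. Exon positions and lengths are from GENCODE M39 (GRCm39). Some listed markers (*Elane*, *Ltf*, *Camp*, *S100a8*, *Epx*, *Hbb-bs*, *Ppbp*) and protein sequences were not analysed here.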

Additional observations from a re-analysis of the deposited data

Results flagged for a closer look

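In 106 groups of 4 samples (53 genes in 2 groups), a sample stood apart by Dixon's test in 5, and chance alone gives about 5.3. *Orc1* was high in scrambled replicate 3 (55.3 CPM against 4.98 to 11.5 in the other 3, Dixon ratio 0.87) and in *Zc3h12a* RNP replicate 3 (41.1 against 7.39 to 13, ratio 0.834), so that both samples of that replicate number were high. *Pold1* was low in *Zc3h12a* RNP replicate 2 (28.2 CPM against 52.1 to 55.8, ratio 0.864). *Cdca7* was low in scrambled replicate 4 (6.19 CPM against 10.9 to 11.6, ratio 0.88). *Chaf1b* was low in *Zc3h12a* RNP replicate 2 (61.6 CPM against 68.6 to 69.1, ratio 0.932), where the others lay unusually close together.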

How the results depend on the processing

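No setting called a replication gene except leaving out a replicate, where the number called ran from 0 to 7. The 18 genes at an unadjusted p at or under 0.05 (1.99% of all genes tested) became 1 without the replicate block (0.141% of all genes), 4 with RLE size factors (0.703%), 36 with total counts (6.22%), 10 without a low-count filter (0.814%), and 0 to 35 with a replicate left out (0.397% to 4.14%). They became 13 with DESeq2 (0.857%) and 20 with limma-trend (2.1%), so the share over all genes moved with the setting too. The 13 genes higher in all 4 pairs became 3 with RLE size factors and 36 with total counts. All genes moved with the scaling too, as 38.1% and 68.3% of them were higher in pair 2. The median log2 fold change of the 53 genes ran from 0.28 to 0.38 over the settings with all replicates, and from 0.14 to 0.48 with a replicate left out. Without the replicate block, 52 of 53 genes kept their direction and no gene changed its call; *Orc1* was at -0.08. *Orc4* was at 0.02 and *Gins4* at 0.06 with total counts, and *Gins4* at 0.02 without a filter. With a replicate left out, log2 fold changes ran from -0.02 to 0.49 for *Orc1*, -0.05 to 0.26 for *Orc2*, -0.01 to 0.16 for *Orc3*, -0.15 to 0.06 for *Orc4*, -0.13 to 0.17 for *Orc5*, -0.07 to 0.13 for *Gins4*, 0 to 0.21 for *Rfc2* and -0.09 to 0.22 for *Rpa3*. Over all genes, edgeR called 0 higher and 1 lower, DESeq2 8 and 52, and edgeR without replicate 2 41 and 53. The cause of these changes was not tested. SEs of the 53 genes were 0.07 to 0.23.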
